A study of Homo sapiens with 3 samples.

Results

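Sprouty and SPRED proteins are feedback inhibitors of signalling from receptor tyrosine kinases through RAS to the ERK kinases, and 5 of their genes, SPRY1, SPRY2, SPRY4, SPRED1 and SPRED2, are described here in HaCaT cells, a line of human skin keratinocytes that became immortal in culture. The members were found by gene name in the annotation of the array files, which gave 8 transcripts of these 5 genes among 23595 named genes. The series holds 3 single-colour Cy3 arrays made by NimbleGen, with 1 array for each group. The groups were cells given all-trans retinoic acid (ATRA, the active form of vitamin A) with nicotinamide (ATRA+NIC), cells given ATRA, and cells given neither (Control), for 36 h. The labels state 1 µM for ATRA, and the sources used here give no nicotinamide dose. All groups are cultures of the same line, and no group with nicotinamide alone was analysed here.

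Growth factors such as EGF and FGF switch on RAS, the RAF and MEK kinases and finally ERK, and ERK in turn raises transcription of genes whose products damp the pathway. Sprouty genes, named after a Drosophila gene that limits airway branching, are among these feedback genes, and their proteins act between the receptors and RAF. SPRED proteins share a cysteine-rich end with Sprouty and carry an EVH1 domain as well, and they bring the RAS inactivator neurofibromin to the membrane. In keratinocytes a main driver of the pathway is EGFR, bound by ligands that the cells make themselves.

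Values are intensities summarised from 3 probes for each transcript, and the level of a gene is the mean of the log2 intensities of its transcripts. With 1 array per group no error between cultures can be had, so no test was made. A difference is called when it reached a fixed size of 2-fold, and the number of arrays limits the precision of every value below. The arrays had median transcript intensities of 298 (ATRA+NIC), 302.3 (ATRA) and 301.5 (Control), and random probes that match no human transcript lay between 18.4 and 19.6. All 10 keratinocyte markers, KRT5, KRT14 and TP63 among them, passed the filter on low values, which was a log2 level of 7.95 on at least 1 array. A total of 12467 genes passed it. Of the 5 members 4 passed, and SPRY1 stayed under it on all 3 arrays. The keratinocyte markers passed but were not all level across the arrays. KRT5 was the 1 of 10 called lower for ATRA against Control, at a log2 difference of −1.57. For ATRA+NIC against ATRA 2 were called lower, TP63 (−1.43) and DSG3 (−1.35), and 0 were called higher in either comparison. Shares over all genes are given below.

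The RefSeq promoter table held 9 windows before annotated starts of the 5 genes, on build GRCh38.p14, and the 250 bases before a start were searched in both strands for 8 motifs. The sequences below are the first listed windows of SPRY4 and SPRY2, the members that were at least 2-fold higher on the ATRA array, and of SPRED2, the member with the smallest difference. Each runs 5′ to 3′ on the strand of the gene, and capitals mark the motif matches.
SPRY4, chr5:142324248-142324497, minus strand: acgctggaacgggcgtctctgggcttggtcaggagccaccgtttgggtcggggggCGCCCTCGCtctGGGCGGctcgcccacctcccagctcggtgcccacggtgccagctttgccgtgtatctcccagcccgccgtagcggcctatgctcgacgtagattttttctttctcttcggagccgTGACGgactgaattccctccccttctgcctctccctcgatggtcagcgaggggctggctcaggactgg
SPRY2, chr13:80341127-80341376, minus strand: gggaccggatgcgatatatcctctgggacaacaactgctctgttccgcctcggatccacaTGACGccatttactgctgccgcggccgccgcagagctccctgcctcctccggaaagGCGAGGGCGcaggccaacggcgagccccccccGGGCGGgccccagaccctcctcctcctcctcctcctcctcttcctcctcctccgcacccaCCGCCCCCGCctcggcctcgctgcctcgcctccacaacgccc
SPRED2, chr2:65432600-65432849, minus strand: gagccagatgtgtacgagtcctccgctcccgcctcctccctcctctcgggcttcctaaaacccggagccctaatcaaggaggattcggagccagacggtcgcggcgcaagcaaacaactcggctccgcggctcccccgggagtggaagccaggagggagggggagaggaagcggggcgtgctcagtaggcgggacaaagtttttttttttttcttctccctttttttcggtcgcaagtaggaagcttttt

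The printed SPRY4 window lies inside the span RefSeq gives the gene, chromosome 5 from 142310430 to 142325021, since the table lists a start downstream of the outermost one. In it the core of the cAMP response element (TGACG) stood at −68 to −64, counted in bases from the start, an SP1 box (GGGCGG) at −183 to −178, and a site for EGR factors (GCGNGGGCG, read on the opposite strand) at −195 to −187. The SPRY2 window held the same 3 motifs, with the TGACG core at −190 to −186, EGR sites at −134 to −126 and −41 to −33, and SP1 boxes at −102 to −97 and −42 to −37, so that 1 SP1 box overlapped an EGR site. None of the 8 motifs matched in the 2 SPRED2 windows, and the SPRED1 window had an SP1 box alone, at −31 to −26. SPRY1 had no match in its first window, while its second held SP1 boxes, an overlapping EGR site and an ETS site (CCGGAAG) at −67 to −61. Matches were common among all 35116 promoter windows of this length, since 42.6% held an SP1 box, 21.2% the TGACG core, 8.52% an ETS site and 8.42% an EGR site. The AP-1 site (TGANTCA, in 6.57% of all windows), the full cAMP response element (TGACGTCA, 1.65%), the retinoid receptor hexamer (AGGTCA, 12.1%) and the CArG box (1.16%) matched in no member window. A match is a run of letters and no evidence of binding, and the retinoid and AP-1 results concern these short windows alone.

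**Figure D1:**
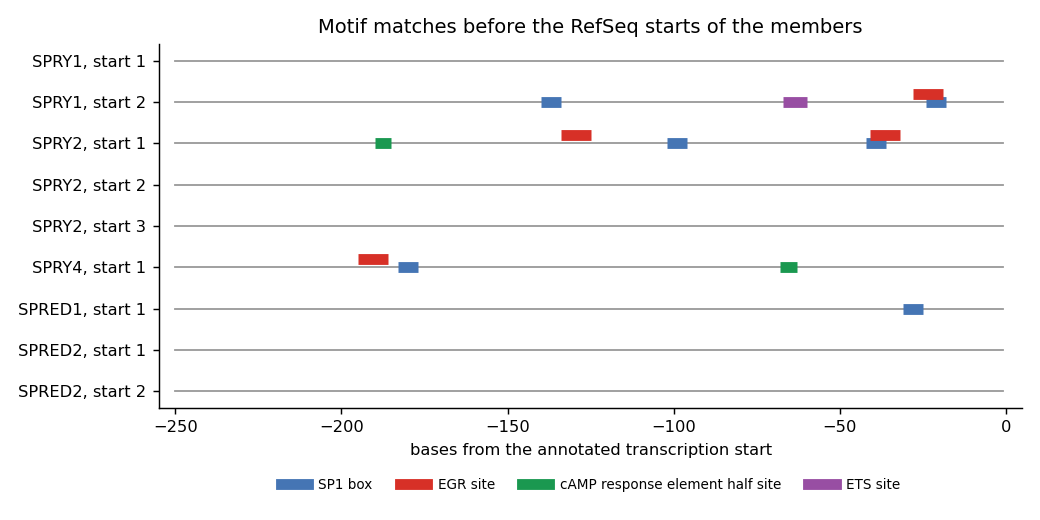
Motif matches in the 250 bases before each RefSeq start of the members, with the distance to the start on the horizontal axis in bases and a line for each window. Matches sit in 1 window each of SPRY1, SPRY2, SPRY4 and SPRED1, and the EGR site and the SP1 box overlap in SPRY1 and SPRY2.

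SPRY4 stood out among the members on the ATRA array. SPRY4 encodes a Sprouty protein, and growth factors induce its transcription in many cells. Its measured transcript spans chromosome 5 from 141670188 to 141684750 on build hg18. Its intensity was 697 with ATRA+NIC, 4927 with ATRA and 947 in Control cells, or log2 levels of 9.44, 12.27 and 9.89. The ATRA array was high, and the ATRA+NIC array lay below the Control array. The level was 5.20-fold higher on the ATRA array than on the Control array, a log2 difference of 2.38, and 68 of the 12467 genes (0.545%) had a larger one. Between ATRA+NIC and ATRA it was 7.07-fold lower with nicotinamide, a difference of −2.82, and 47 genes (0.377%) lay further down. ATRA+NIC and Control differed by −0.44. The gene was read by 1 transcript, so these values have no second reading on the arrays.

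SPRY2, whose protein binds the ubiquitin ligase CBL and the adaptor GRB2, was read by 2 transcripts on chromosome 13. The transcript from 79808307 to 79810973 had intensities of 793 with ATRA+NIC, 1524 with ATRA and 689 in Control cells. The longer one, from 79808111 to 79813087, had 321 with ATRA+NIC, 443 with ATRA and 237 in Control cells. Both were highest on the ATRA array and lowest on the Control array. The gene level was 2.03-fold higher on the ATRA array than on the Control array, with log2 differences of 1.15 and 0.90 for the transcripts, so it lay at the 2-fold limit and its transcripts stood on either side of it. With nicotinamide it was 1.63-fold lower than with ATRA alone, by differences of −0.94 and −0.46, and it kept a difference of 0.32 over Control.

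SPRY1, an antagonist of FGF and GDNF signalling in mouse development, was dim, and lay above the intensity of 50 under which the authors' value table keeps no transcript. Its transcript on chromosome 4 from 124540132 to 124544360 had intensities of 109 with ATRA+NIC, 202.3 with ATRA and 119 in Control cells. The transcript from 124537405 to 124544357 had 85.6 with ATRA+NIC, 163 with ATRA and 88.8 in Control cells. The ATRA array was high in both, and the ATRA+NIC array was close to Control in both. The gene level differed by 0.82 on the log2 scale between ATRA and Control (1.77-fold), and its transcripts were 0.11 apart. Between ATRA+NIC and ATRA the difference was −0.91 (1.88-fold lower), with transcripts 0.03 apart, so no call was reached in either comparison.

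The SPRED genes differed less. SPRED1, the gene mutated in Legius syndrome, was read by transcripts on chromosome 15. The one from 36332346 to 36431583 had intensities of 341 with ATRA+NIC, 456 with ATRA and 426 in Control cells. The one from 36331807 to 36433533 had 133 with ATRA+NIC, 218 with ATRA and 175 in Control cells. Both were lowest on the ATRA+NIC array. The gene level differed by 0.21 between ATRA and Control and by −0.57 between ATRA+NIC and ATRA. SPRED2, a paralog with the same EVH1 domain, had 434 with ATRA+NIC, 471 with ATRA and 466 in Control cells for its transcript on chromosome 2 from 65391488 to 65512815. Its differences were 0.02 between ATRA and Control and −0.12 between ATRA+NIC and ATRA, and its levels on the ATRA and Control arrays are nearly equal.

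**Figure D2:**
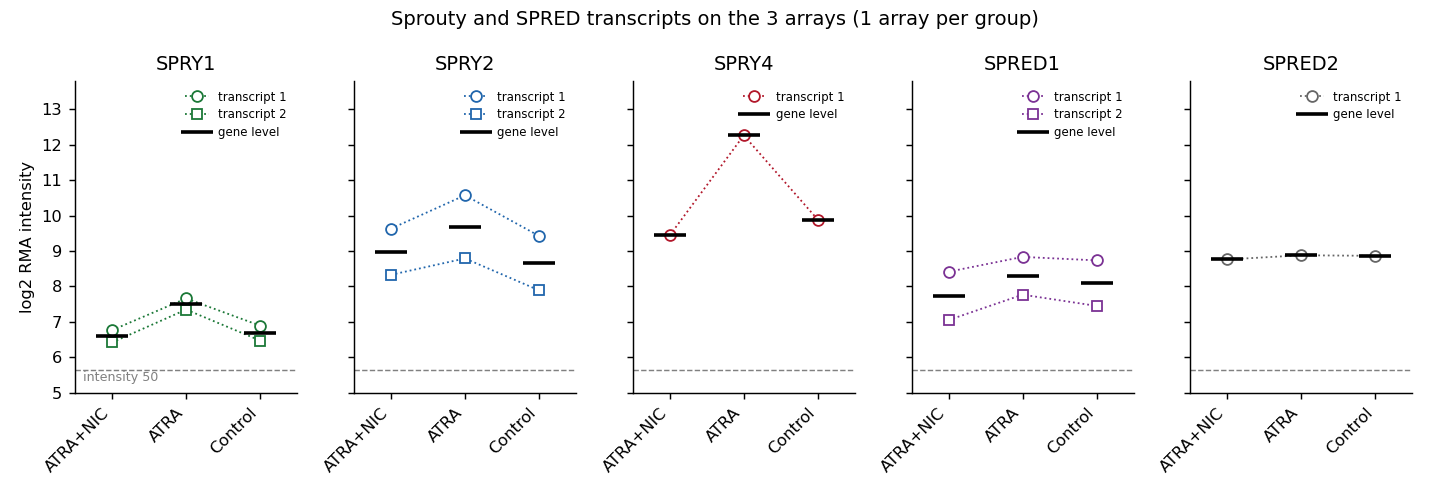
log2 intensity of each transcript of the 5 members for ATRA+NIC, ATRA and Control, 1 array per group, with open points for transcripts, black bars for the gene level and a dashed line at an intensity of 50. SPRY4 lies at 9.44 with ATRA+NIC, 12.27 with ATRA and 9.89 in Control cells, while SPRED2 is nearly level.

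ATRA was compared with Control to ask which genes differ in cells given the retinoid. SPRY4 and SPRY2 were the members at least 2-fold higher, which is 2 of the 4 that passed the filter, and 0 were lower. Over all genes passing the share higher by 2-fold or more was 3.83% and the share lower by as much was 2.06%. All 5 members had a higher level on the ATRA array than on the Control array, with differences from 0.82 to 2.38 for the Sprouty genes and of 0.02 and 0.21 for the SPRED genes. The median difference was 0.62 over the members that passed and 0.82 over all 5, against −0.04 over all genes that passed. A measure of scatter within the arrays is the SD of differences among transcripts that share a gene, pooled over 7074 genes. It was 0.31 here, and the gene differences of the SPRED genes lay inside it while those of the Sprouty genes did not. Of the SPRED1 transcripts, the one at 0.10 lay inside it and the one at 0.32 just outside. That SD describes single transcripts and holds no variation between cultures, so it is not the error of a gene difference.

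ATRA+NIC was compared with ATRA to ask which genes differ when nicotinamide is added to the retinoid. All 5 members were lower with nicotinamide, and SPRY4 was the member at least 2-fold lower, 1 of the 4 that passed, with 0 higher. Over all genes passing the share lower by 2-fold or more was 3.74% and the share higher by as much was 1.35%. The median was −0.63 over the members that passed and −0.70 over all 5, against 0.05 over all genes that passed. The pooled SD between transcripts was 0.30, and SPRED2 was the member inside it. Both comparisons use the ATRA array, so a high value on that array alone gives a difference of opposite sign in each. All 5 members had their highest level on the ATRA array, SPRY1 without passing the filter and SPRED2 by 0.02 over Control. The paralog SPRED3, which did not pass the filter, had its lowest level there. Of all genes that passed the filter, 32.8% were highest with ATRA+NIC, 33.4% with ATRA and 33.8% in Control cells.

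ATRA+NIC and Control, compared directly, had 0 members called in either direction, beside 1.03% of all genes higher and 0.971% lower. SPRY2 differed by 0.32, SPRY1 by −0.09, SPRED2 by −0.10, SPRED1 by −0.36 and SPRY4 by −0.44. The pooled SD between transcripts was 0.24 here, with the gene differences of SPRY1 and SPRED2 inside it and those of SPRY2, SPRED1 and SPRY4 outside it. The 2 transcripts of SPRY2, at 0.20 and 0.44, stood on either side of it. SPRY2 was thus the member with a higher level on the ATRA+NIC array than on the Control array, and SPRY1, SPRY4 and both SPRED genes had their lowest level on the ATRA+NIC array.

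**Figure D3:**
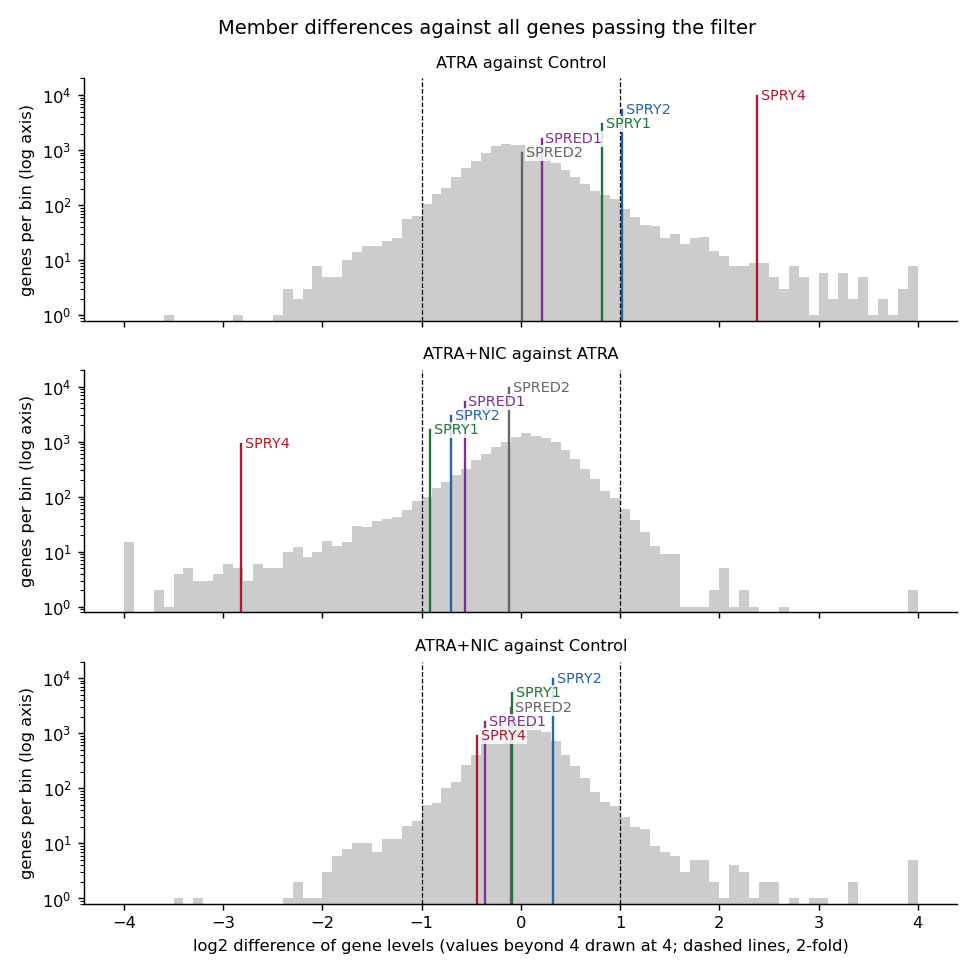
Number of genes per bin of 0.1 on a log axis, by log2 difference, for the 12467 genes that passed the filter, in each of the 3 comparisons. Coloured lines give the members, and line heights carry no value. SPRY4 lies in the upper tail for ATRA against Control and in the lower tail for ATRA+NIC against ATRA, and all 5 members lie within the 2-fold lines for ATRA+NIC against Control.

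Genes with the most similar pattern were sought for each member that passed the filter, by the distance between pairs of differences (ATRA minus Control and ATRA+NIC minus ATRA) over the 3 arrays, among 11098 other named genes. Nearest to SPRY4 were DNAJB4, which encodes a heat shock co-chaperone (distance 0.14), ZFP36, which encodes a protein that destabilises AU-rich mRNAs (0.17), and PPP1R15A, which encodes a phosphatase subunit of the stress response (0.21). ZFP36, for example, had log2 levels of 9.60 with ATRA+NIC, 12.28 with ATRA and 9.80 in Control cells. In all, 5 genes lay within 0.25 of SPRY4, against 155 for SPRY2, 664 for SPRED1 and 2581 for SPRED2. Nearest to SPRY2 were SAA4, RASGRF1, a RAS exchange factor gene, and ACAP2, at distances of 0.03 to 0.04. SAA4 passed the filter on the ATRA array alone, at a log2 level of 8.51, and so had to be high there to be found. The nearest to SPRED1 were CCNT2, SLC16A1 and TM4SF19, and to SPRED2 TMEM185B, MPHOSPH10 and GMEB2. With 3 arrays a near match is easy to find where the differences are small.

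The genes around the members were followed through lists, and the values in brackets are log2 differences. Their counts and medians stand beside the shares and medians over all genes given above. The lists were chosen with earlier results of these data known, so that setting is a description and no test. Upstream, 8 of 13 receptor tyrosine kinases passed the filter, and their median difference was −0.29 for ATRA against Control, with 0 at least 2-fold higher and 1, IGF1R, lower (−1.13). EGFR itself had log2 levels of 12.83 with ATRA+NIC, 13.17 with ATRA and 13.34 in Control cells. Of 14 ligand and ligand carrier genes 6 passed, and 3 of them were called higher with ATRA. The median was 0.22 over all 14 and 1.53 over the 6 that passed. These were the EGFR ligand genes HBEGF (3.88), EREG (2.76) and AREG (2.50), while FGFBP1, a carrier of FGFs, was lower (−1.49). With nicotinamide the median was −0.37 over all 14 and −1.95 over the 6. Called lower than with ATRA alone were 4 of the 6, HBEGF by −3.92, AREG by −3.46, EREG by −2.57 and NRG1, a ligand of ERBB3, by −1.33. Against Control, NRG1 (−1.75) and FGFBP1 (−1.11) were lower on the ATRA+NIC array.

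Between receptor and RAS, none of 11 adaptor and exchange factor genes reached 2-fold in any of the 3 comparisons. Their median was 0.25 with ATRA over Control and −0.33 with nicotinamide over ATRA alone, and the exchange factor gene SOS2 had the greatest differences, 0.62 and −0.91. The 12 RAS, RAF, MEK and ERK genes that passed likewise had none at 2-fold, with medians of −0.11 and 0.01. BRAF differed by 0.40 and −0.56, NRAS by −0.43 and −0.10. Of 7 RAS GTPase-activating protein genes, RASA3 was at least 2-fold higher with ATRA (1.83) and lower with nicotinamide (−2.25). RASA3 passed the filter on the ATRA array alone, at a log2 level of 7.97, and so had to be high there to be counted. NF1, the neurofibromin gene whose product SPRED proteins carry to the membrane, differed by −0.43 and −0.36. The 16 genes of binding partners and modifiers of the members had medians of 0.22 and −0.29. In that list the caveolin gene CAV1 was at the limit for ATRA against Control, lower by 2.00-fold, and the ubiquitin ligase gene CBLB, at 0.83 there, was the 1 of 16 called lower with nicotinamide (−1.33).

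The list of other induced inhibitors of ERK signalling also holds genes that are not specific to ERK, SOCS3 among them. Of its 13 genes that passed, 6 were called higher for ATRA against Control and 0 lower. The median was 0.51 over all 16 measured and 0.86 over the 13 that passed. Those called were the ERK and MAP kinase phosphatase genes DUSP5 (3.05), DUSP1 (2.91), DUSP2 (1.90) and DUSP4 (1.86), the cytokine signalling inhibitor gene SOCS3 (2.40), and ERRFI1 (2.32), whose product inhibits EGFR directly. SOCS3 passed the filter on the ATRA array alone. With nicotinamide 7 of 13 were called lower than with ATRA alone and 0 higher, and the median was −0.57 over all 16 and −1.42 over the 13. DUSP1 (−3.64), ERRFI1 (−3.47) and DUSP5 (−3.06) led them, and DUSP6, which encodes an ERK phosphatase, joined at −1.63. DUSP6 differed by 0.65 between ATRA and Control. Against Control, ERRFI1 was lower on the ATRA+NIC array (−1.15), and SPRY4 at −0.44 did not reach the limit there.

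Genes listed as transcriptional output of ERK had 6 of the 12 that passed called higher with ATRA and 0 lower. The arrays measure RNA alone, so these levels are no measure of ERK activity, which was not tested. The median was 0.71 over all 13 measured and 0.88 over the 12, and FOS passed the filter on the ATRA array alone. FOS (4.37), EGR1 (3.43), FOSL1 (1.87) and IER2 (1.56), which encode early-response transcription factors or regulators, were higher, as were EPHA2 (1.32), an ephrin receptor gene, and PHLDA1 (1.05). With nicotinamide 8 of 12 were at least 2-fold lower than with ATRA (median −1.13 over all 13 and −1.16 over the 12), FOS by −4.72, EGR1 by −3.64, FOSL1 by −2.29, PHLDA1 by −1.77, IER2 by −1.31, MYC by −1.20, EPHA2 by −1.13 and IER3 by −1.09. The output gene CCND1, the cyclin D1 gene, differed by −0.01 and 0.16, and ETV4, which encodes an ETS factor, by −0.10 and −0.36. EPHA4 was lower on the ATRA+NIC array than on the Control array, by at least 2.01-fold, and passed the filter on the Control array alone. The 12 reference genes had 0 at 2-fold in each comparison, and medians of −0.04 (ATRA against Control) and −0.08 (ATRA+NIC against ATRA).

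**Figure D4:**
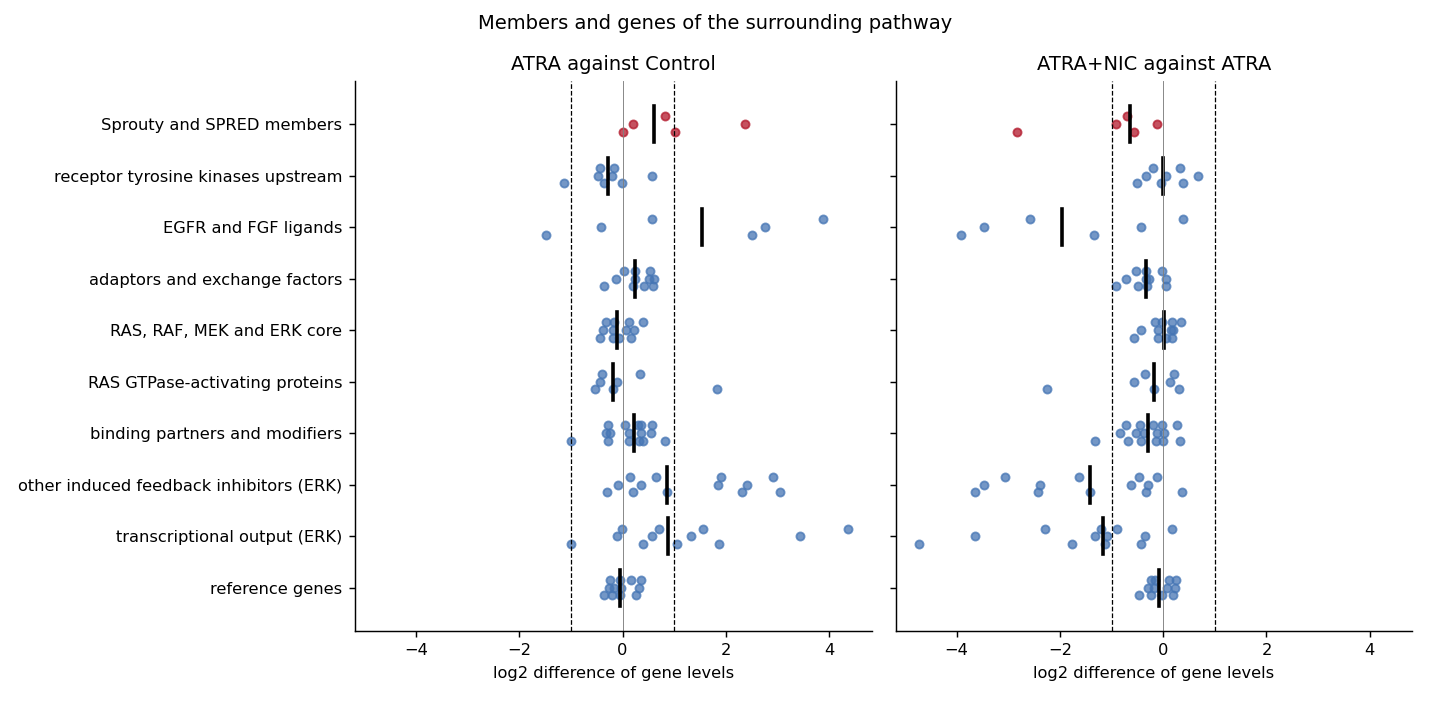
log2 differences of gene levels for the members (red, all 5, SPRY1 included although it did not pass the filter) and for the genes of each list that passed the filter (blue), with ATRA against Control on the left and ATRA+NIC against ATRA on the right. Black bars are medians of the genes that passed, 0.86 and −1.42 for other induced inhibitors of ERK signalling (0.51 and −0.57 over all 16 measured) against −0.04 and −0.08 for reference genes, and dashed lines mark 2-fold.

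Most markers of other cell types were dim, and the summed intensity of leukocyte markers was highest on the ATRA array, where the members were highest. Of 10 leukocyte markers, 9 were higher on the ATRA array than on the Control array, and 9 were lower on the ATRA+NIC array than on the ATRA array. Summed over the list, intensity was 3109 with ATRA+NIC, 5142 with ATRA and 2688 in Control cells, most of it from CD68. The pan-leukocyte marker PTPRC had 18.5 with ATRA+NIC, 151 with ATRA and 33.7 in Control cells. Their part in the member differences was not tested. Of 7 melanocyte, 8 fibroblast and 7 endothelial markers, 1, 3 and 1 passed the filter. The endothelial one was CDH5, at an intensity of 3263 with ATRA+NIC, 2534 with ATRA and 209 in Control cells, an order unlike that of any member. In such bulk RNA, fewer cells of a type and less RNA per cell cannot be told apart.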

How the data were processed

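HaCaT RNA was measured on 3 NimbleGen arrays, 1 per group, so replicates could be neither averaged nor compared. Per the file headers the authors deposited expression values as intensities on a linear scale for 45033 transcripts, from 3 probes each in all but 2. The deposited array files are named as RMA calls, and the sources used here give no software or version. A column headed as a standard error has no stated unit and was not used. The authors' value table holds the same intensities for 31275 transcripts that reached 50 on all arrays.

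Here log2 intensities were averaged over the transcripts of a gene. Of 45033 transcripts 2086 had no gene name and were left out. Of 23619 gene numbers, 20230 matched a RefSeq symbol (GRCh38.p14, names and promoter sequences only), and others kept the file's name. Array coordinates are hg18. Genes at or above the median of all levels (7.95, intensity 246.5) on at least 1 array passed the filter. A call needed 2-fold. With any dimmer-side transcript under 50, values under 50 were set to 50 and the fold written "at least". Python 3.11.15 with numpy 2.4.6 and pandas 2.3.3 was used.

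Members and lists were chosen with earlier results of these data known. Named list genes are the 3 with the greatest difference per list and comparison, those at 2-fold, and EGFR. CCND1, ETV4, CD68, PTPRC, CDH5 and DSG3 were named, and the keratinocyte marker differences given, after their values were seen. Alternatives covered the transcript summary, an offset of 100, a floor of 50, centring, the value table and the filter.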

Additional observations from a re-analysis of the deposited data

How the results depend on the processing

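No paired analysis was possible because each group holds 1 array, and none could be left out. Of the 8 alternatives, 3 could move a member difference: the brightest transcript (for genes with 2), the offset and the centring. The others leave it as it is by construction, so their agreement shows no stability. Under those 3 all 5 members stayed highest on the ATRA array and their differences kept their sign. SPRY4, with 1 transcript, was 2.26 with the offset and 2.38 with centring for ATRA against Control, and −2.66 and −2.80 for ATRA+NIC against ATRA. SPRY2 for ATRA against Control fell under 2-fold, to 0.86, with an offset of 100 before log2, which shrinks differences of dim genes. The count of members at least 2-fold higher was then 1, as it was with the filter at the 75th percentile, which SPRY2 missed. Counts of all genes depended on the settings. For ATRA against Control, the higher count was 997 with no filter and 234 with the 75th percentile filter, and the lower count 759 with no filter, 74 with that filter, 130 with the offset and 125 in the value table. For ATRA+NIC against ATRA, the higher count was 728, 48, 75 and 89 under the same 4 settings, and the lower count was 973 with no filter, 221 with the 75th percentile filter and 310 in the value table. For ATRA+NIC against Control, the same 4 settings gave 548, 44, 74 and 72 higher and 491, 48, 69 and 75 lower. Without a filter 1 pathway list gene was at least 2-fold higher for ATRA+NIC against ATRA, against 0 with it. List medians moved too: the induced inhibitors of ERK signalling had 1.36 in the value table (ATRA against Control) and −1.02 by the brightest transcript (ATRA+NIC against ATRA), and the ligands 2.50 and −2.57 with the 75th percentile filter. The filters differ in the number of genes they keep, 23595 and 6503, and the value table names 16758 genes.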

Other observations

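The remaining paralogs, SPRY3 and SPRED3, were dim, and neither passed the filter, so no difference was called. SPRED3, read by 3 transcripts, had log2 levels of 6.24 with ATRA+NIC, 5.85 with ATRA and 6.13 in Control cells, and its brightest transcript had intensities of 176 with ATRA+NIC, 152 with ATRA and 159 in Control cells. SPRY3 had levels of 4.80 with ATRA+NIC, 4.36 with ATRA and 4.42 in Control cells, all under an intensity of 50, and its 2 transcripts put the arrays in different orders, so no order is read from it.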
